A study of Mus musculus with 48 samples.

Results

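Timed sleep restriction (TSR) in mice was examined in the liver, which was compared between ZT1 and ZT7, that is, between 1 h after the daily handling began and 1 h after it ended (Zeitgeber time, ZT, counts hours from lights on). The comparison took the 6 liver arrays labelled sleep restricted at these times, 3 at ZT1 and 3 at ZT7, out of 48 arrays in the series, and all 24261 probe sets with a gene symbol, which stand for 21352 genes. All mice were male Bl6J animals of 10 to 12 weeks, without any transgene. TSR mice had been kept awake by gentle handling from ZT0 until ZT6 over 5 days, were then left alone for 2 days, and were handled again in a further block of 5 days, with collection starting late in that block. Control mice were housed alike and left undisturbed, and 3 were collected at each of the same times. Each array held RNA of whole liver from a separate mouse, and no animal was sampled at both times. Within TSR the time of day and the hours of handling therefore cannot be told apart, and the control change from ZT1 to ZT7, or the difference from it, is given beside the genes described.

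In the liver the molecular clock is a feedback loop. The activators ARNTL (BMAL1), CLOCK and NPAS2 drive the Per, Cry and Nr1d (Rev-erb) genes through E-boxes, PER and CRY proteins repress those activators, and REV-ERB proteins repress Arntl and Npas2 while ROR proteins induce them. Food and hormones act on the same tissue within hours. Insulin represses Igfbp1, which encodes a circulating binding protein of insulin-like growth factors, through FOXO transcription factors, and Egr1 is an immediate early gene whose zinc finger product is made within minutes of many stimuli.

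The tissue label held, since the 9 measured hepatocyte markers summed to a signal of 65190.2 to 74699 in the TSR ZT1 arrays and 73475 to 75610 in the TSR ZT7 arrays, and none of them changed between the times. Median signals of the 24 liver arrays lay between 84.5 and 109. The array labels number TSR and control liver in separate blocks, whose meaning is not given. A difference in level between treatments at the same time therefore cannot be told apart from a difference between these blocks. The array TSR ZT1 replicate 3 stood apart from the other 2 of its group, with a standard deviation of 0.27 on the log2 scale from its group mean against 0.18 and 0.19 for the other arrays, and results that rest on it are given with and without it. Control ZT7 replicate 3 deviated as much (0.27 against 0.19 and 0.19), and TSR ZT7 replicate 1 by 0.25 (against 0.19 and 0.17). Counts without each of these arrays are given near the end, but single genes are followed only without TSR ZT1 replicate 3. Whole liver was measured, so fewer cells of a type and less RNA per cell cannot be told apart.

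Between ZT1 and ZT7, 317 probe sets rose in TSR liver and 686 fell, which is 1003 in all or 4.13% of those tested (1.31% higher and 2.83% lower in limma with Benjamini-Hochberg adjustment over all 24261). At an unadjusted p under 0.05 the number was 4485. Most changes were small, with a median log2 rise of 0.53 and a median log2 fall of -0.57, with 28 rises and 52 falls of a log2 difference between 1 and 2 and 5 rises and 3 falls beyond 2. In 999 of the 1003 the 3 ZT7 arrays lay wholly above or below the 3 ZT1 arrays, an order seen in 13.8% (above) and 11.9% (below) of all probe sets. The 12 largest rises and 12 largest falls described below were taken only from called probe sets with this order. Its mention for those genes is therefore no further evidence. Without TSR ZT1 replicate 3, 74 probe sets rose (0.305%) and 248 fell (1.02%), or 1.33% together. The spread was estimated over the 8 liver groups, and a limma fit of the 6 TSR arrays alone called 10 probe sets, Egr1 and Igfbp1 among them (adjusted p = 0.0119 and 0.0471).

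In control liver 386 probe sets (1.59%) changed between the same times, 201 upward (0.828%) and 185 downward (0.763%). Both comparisons called 77 probe sets, 45 of them in the same direction, which is 7.68% of the TSR calls and 19.9% of the control calls. The difference between the TSR change and the control change was tested directly and passed for 939 probe sets (3.87%), 368 of them more positive in TSR (1.52%) and 571 more negative (2.35%). Without TSR ZT1 replicate 3 it passed for 417 (1.72%), 147 positive (0.606%) and 270 negative (1.11%). Of the 1003 probe sets that changed in TSR, 447 (44.6%) also passed this test, 129 rises and 318 falls. The difference contains the same TSR change by which the 1003 were chosen. That choice raises the share, which is thus not comparable with the 3.87% of all probe sets.

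**Figure D1:**
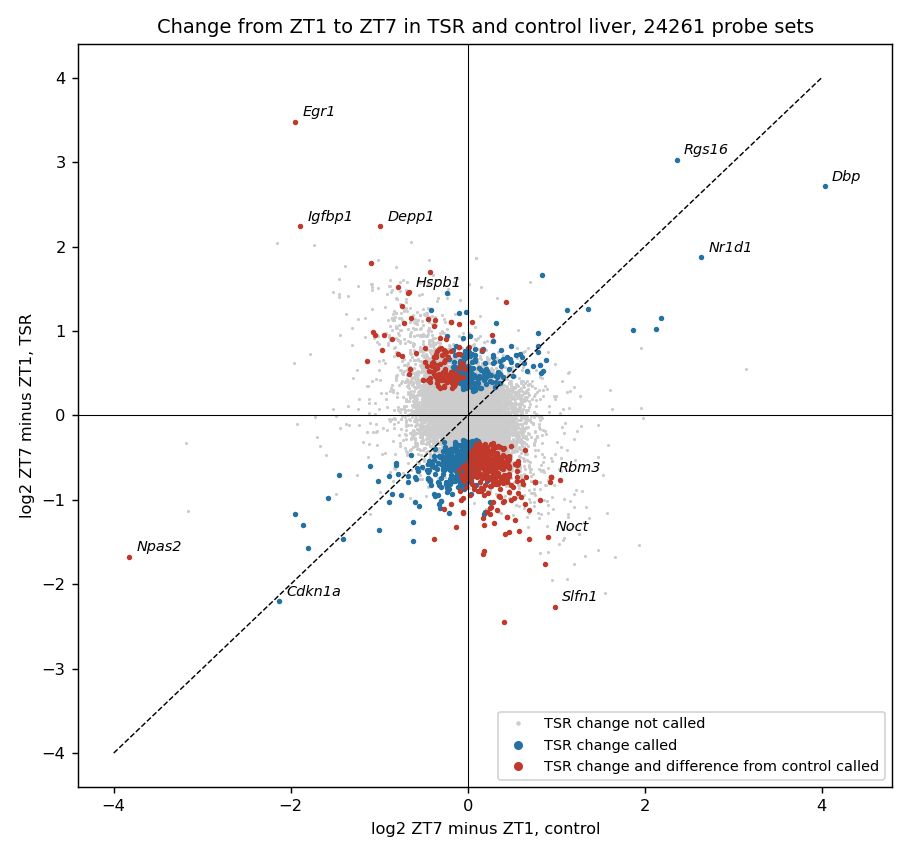
Each point is a probe set, with the log2 difference ZT7 minus ZT1 in control liver on the x axis and in TSR liver on the y axis (24261 probe sets, n = 3 arrays per group and time). Egr1, Igfbp1 and Depp1 lie at the upper left, where signals rose in TSR and were lower at ZT7 in control, whereas Dbp, Nr1d1 and Rgs16 lie at the upper right, where signals were higher at ZT7 in both (the dashed line marks equal change).

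Egr1 showed the largest rise. Its signal was 113, 182 and 167 at ZT1 and 1744, 1907 and 1441 at ZT7. Every ZT7 array was far above every ZT1 array, and the group means were 154 ± 36.2 and 1697 ± 237 (SD, n = 3). The fold, which here and below is taken between means of log2 values, was 11.2-fold (log2 difference 3.48 ± 0.46, SE, limma adjusted p = 0.000512, and 0.00281 without TSR ZT1 replicate 3). In control liver the order was the opposite, with 585, 2708 and 1455 at ZT1 and 264, 475 and 319.5 at ZT7, and the difference between the changes was 5.43 ± 0.65 on the log2 scale (adjusted p = 0.000187). The control arrays at ZT1 spread widely around the TSR level of ZT7, and the 3 TSR arrays at ZT1 were the dimmest of the 12.

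Igfbp1 behaved alike. Its signal was 322, 327 and 413 at ZT1 and 1203, 2136 and 1785 at ZT7 in TSR liver. The groups did not overlap, and the rise was 4.72-fold (log2 difference 2.24 ± 0.32, adjusted p = 0.000772, and 0.00335 without TSR ZT1 replicate 3). In control liver Igfbp1 fell, from 697, 2465 and 1038 at ZT1 to 367, 341 and 278 at ZT7 (log2 difference -1.89 ± 0.32, adjusted p = 0.00317). The changes differed by 4.13 ± 0.45 (adjusted p = 9.07e-05).

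The Igfbp1 promoter is printed because insulin is known to act on this gene through a pair of A- and T-rich elements close to its start site. The sequence covers 250 bases before to 50 bases after the start (chr11:7197537-7197836, plus strand, GRCm38.p6, RefSeq), with both matches to CAAAACA or CAAAATA in capitals.

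Igfbp1: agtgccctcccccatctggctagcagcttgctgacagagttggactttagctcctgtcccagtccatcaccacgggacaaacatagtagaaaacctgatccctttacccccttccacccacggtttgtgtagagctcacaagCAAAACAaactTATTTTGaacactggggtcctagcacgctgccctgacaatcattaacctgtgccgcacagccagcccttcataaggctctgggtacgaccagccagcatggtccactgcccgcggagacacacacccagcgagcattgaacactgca

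These letters were searched for on both strands, a choice made after the sequence had been seen, and 10.2% of 32851 RefSeq promoters of the same length hold a match. A match is a description of the sequence and not a measured binding site. Among the 12 largest rises below, 9 had a promoter in the table and 3 of those held this motif, Igfbp1 among them. Since the letters were chosen on Igfbp1, its own match was fixed beforehand. Of the 12 largest falls, 9 had a promoter and 1 held the motif, and of the 141 named genes with a promoter 13 did.

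Depp1, which encodes a protein known in human cells as a FOXO-induced regulator of autophagy, followed the same order. Its signal was 684, 350.4 and 549.6 at ZT1 and 2225, 2625 and 2379.8 at ZT7. No array overlapped with the other group, the rise was 4.73-fold (log2 difference 2.24 ± 0.27, adjusted p = 0.000288), and the change differed from control by 3.23 ± 0.38 (adjusted p = 0.000162), since the control mean was lower at ZT7 by a log2 difference that did not pass (-0.99, adjusted p = 0.0719).

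A further set of the largest rises belonged to genes that were higher at ZT7 in control liver too. Rgs16, a GTPase-activating regulator of G protein signalling, read 71, 54.1 and 101 at ZT1 and 149.7, 809 and 1739 at ZT7 (8.17-fold, adjusted p = 0.0144). The D-box transcription factor gene Dbp, a direct target of CLOCK and ARNTL, read 92.1, 88.1 and 276 at ZT1 and 791, 792 and 1007 at ZT7 (6.56-fold, adjusted p = 0.000772), and Arrdc3, an arrestin-domain gene, read 753, 665 and 845 at ZT1 and 1023, 2154 and 2655 at ZT7 (2.4-fold, adjusted p = 0.0136). In all 3 genes the ZT7 arrays were higher without overlap, which the choice of the largest rises required. The control changes of 2.36 (not passing, adjusted p = 0.0903), 4.04 and 1.36 on the log2 scale differed from the TSR changes by amounts that did not pass the test (adjusted p = 0.752, 0.174 and 0.92).

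Hspb1, which encodes a small heat shock protein, was higher at ZT7 with 135, 107 and 90.1 at ZT1 and 459.5, 331 and 176 at ZT7. The rise of 2.73-fold passed the test (adjusted p = 0.00781) but not without TSR ZT1 replicate 3 (0.0563), and it differed from control by 2.12 ± 0.41 (adjusted p = 0.00744). These values are from the brightest of 3 probe sets, and the other 2 rose (log2 differences of 1.80 and 1.47, adjusted p = 0.00631 and 0.00427) and also passed without that array (0.0392 and 0.0336). The kinase gene Pim1 read 220.2, 214 and 187 at ZT1 and 429, 629 and 528 at ZT7 (2.53-fold, adjusted p = 0.000301). Its 3 ZT7 arrays were all above the ZT1 arrays, which lay close together, and the rise was larger than in control by 0.90 ± 0.23 (adjusted p = 0.0324, and 0.097 without TSR ZT1 replicate 3).

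The other 3 of the 12 largest rises lost the call without TSR ZT1 replicate 3. They were Gnat1, the alpha subunit of rod transducin (128, 137 and 69.6 at ZT1 and 235, 544 and 302 at ZT7), the beta-defensin gene Defb48 (70.0, 24.5 and 22.1 at ZT1 and 88.6, 87.4 and 117 at ZT7) and the vault RNA Vaultrc5 (1345, 1247 and 483 at ZT1 and 2389, 2355 and 2950.0 at ZT7), with adjusted p of 0.0355, 0.0322 and 0.0483, and 0.214, 0.203 and 0.3 without that array. In each of them TSR ZT1 replicate 3 read lowest of its group. Their control changes were 0.84, -0.78 and -0.23 on the log2 scale, and the difference from control passed for Defb48 (2.31 ± 0.55, adjusted p = 0.0235, and 0.0821 without TSR ZT1 replicate 3). A predicted gene and a receptor of a gene cluster with rises of this size are counted but not named.

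**Figure D2:**
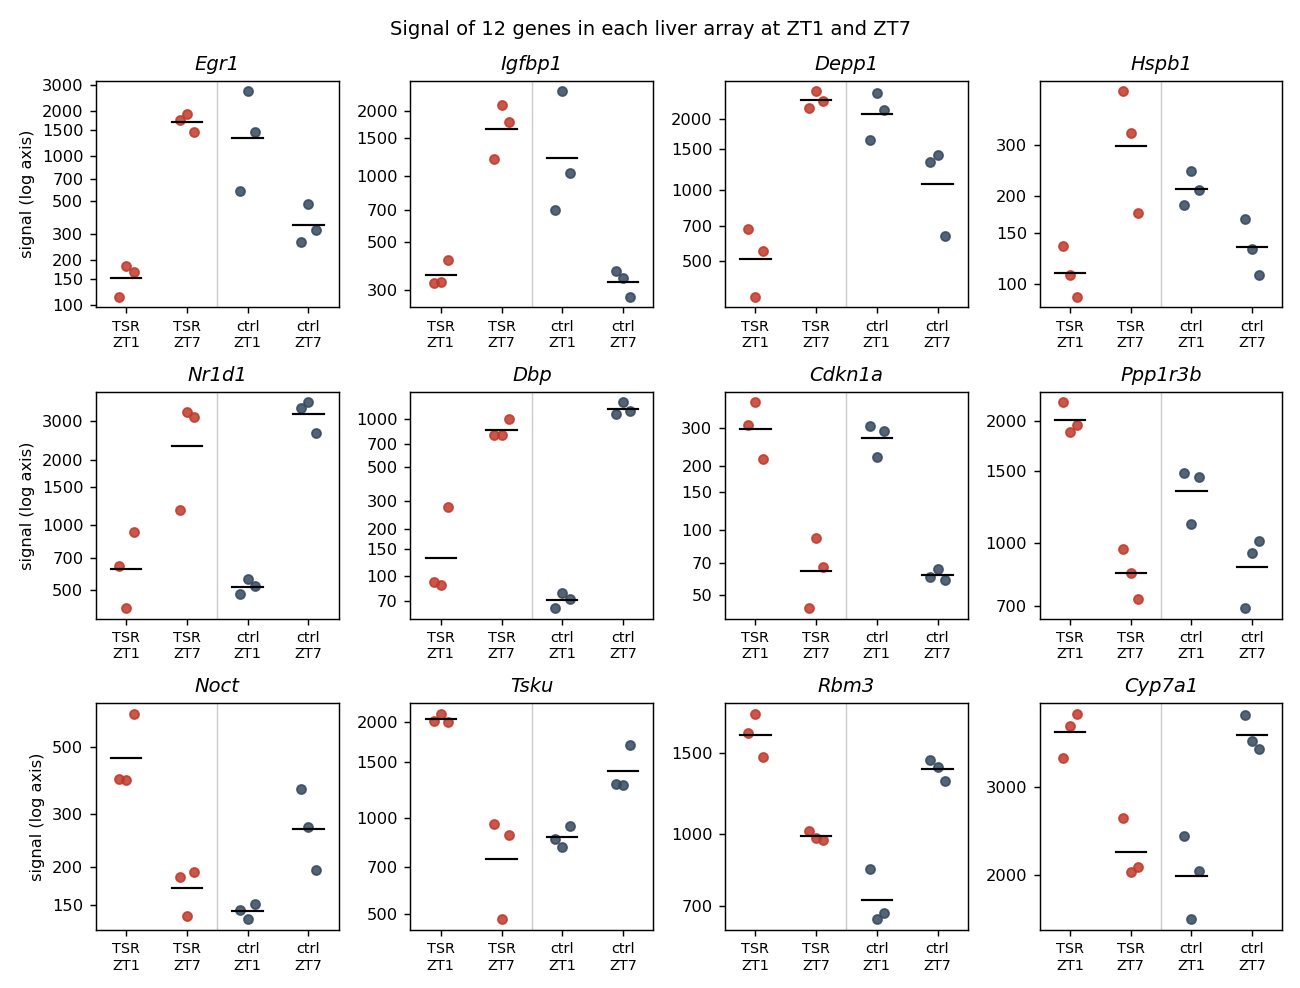
Each panel shows the signal of a gene on a log axis in the 3 arrays of TSR ZT1, TSR ZT7, control (ctrl) ZT1 and control ZT7, with a bar at the mean of the log values. The means of Egr1, Igfbp1, Depp1 and Hspb1 were higher at ZT7 in TSR and lower in control, those of Nr1d1 and Dbp were higher at ZT7 in both treatments, those of Cdkn1a and Ppp1r3b were lower in both, and those of Noct, Tsku, Rbm3 and Cyp7a1 were lower at ZT7 in TSR and higher in control.

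Of the 14 core clock genes, 4 rose (Per3, Cry2, Nr1d1 and Nr1d2), 3 fell (Clock, Npas2 and Cry1) and 7 did not pass, against 1.34% higher and 2.77% lower among all 21352 genes with 1 probe set each, and the same 7 passed without TSR ZT1 replicate 3. Other settings, which include other arrays left out and the TSR arrays alone, took more calls away. Per3 lost its call in 7 of 17 settings, Nr1d1 in 6 of 18 and Clock in 5 of 18, and Npas2, Cry1, Cry2 and Nr1d2 each lost theirs in 3. The median log2 difference of the list was 0.05, beside 0.05 for all probe sets. In control liver 5 of the 14 rose and 4 fell, beside 180 and 166 of all 21352 genes. The changes of these genes in control liver are given beside those of TSR below.

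Nr1d1, which encodes the repressor REV-ERB alpha, read 646, 412 and 930.1 at ZT1 and 1171, 3305 and 3147 at ZT7. The groups did not overlap, with ZT7 replicate 1 nearest to the ZT1 arrays, and the rise was 3.67-fold (log2 difference 1.87 ± 0.40, adjusted p = 0.011, and 0.0164 without TSR ZT1 replicate 3). The control change was 2.64 ± 0.40, and the difference of -0.76 ± 0.57 did not pass (adjusted p = 0.48). Its paralogue Nr1d2 (REV-ERB beta) read 668, 715 and 1142 at ZT1 and 1702, 1832 and 1941 at ZT7. All ZT7 arrays were higher (2.23-fold, log2 difference 1.16 ± 0.23, adjusted p = 0.0066), beside 2.18 in control, a difference that did not pass (adjusted p = 0.075).

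Per3 read 76.7, 78.6 and 164 at ZT1 and 277, 168 and 179.7 at ZT7, and the repressor gene Cry2 read 284, 260.2 and 303 at ZT1 and 454, 377 and 441 at ZT7. In both genes every ZT7 array was above every ZT1 array, in Per3 by a narrow margin over ZT1 replicate 3. Per3 was at least 2.04-fold higher (adjusted p = 0.0325), as its ZT1 signals carried no detection call (a detection p of 0.05 or less, as deposited), and Cry2 was 1.5-fold higher (adjusted p = 0.00336), beside a control change of 0.74 on the log2 scale. Such calls did not follow the signal closely, since Egr1 carried a call in 1 of its 3 bright ZT7 arrays and 114 of 4493 probe sets with a mean signal over 500 carried none in all 6 arrays. Here and below, "at least" only marks that the lower group carried no call. The number beside it is the estimated fold itself, without allowance for its standard error, so the fold may also be smaller. The TSR change of Per3, 1.03, stood beside 2.13 in control (difference -1.10 ± 0.37, adjusted p = 0.0973).

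Per1 and Per2 did not follow Per3. Per1 read 309.9, 312 and 369.6 at ZT1 and 175, 242 and 411 at ZT7 in TSR liver, and Per2 read 200.0, 183 and 296 at ZT1 and 309, 174 and 200.2 at ZT7. Both pairs of groups overlapped, with log2 differences of -0.35 ± 0.32 (adjusted p = 0.62) and -0.0029 ± 0.20 (adjusted p = 0.997). Per1 rose in control liver, from 111, 89.3 and 105 to 309.9, 486 and 188 (1.59 ± 0.32, adjusted p = 0.0137), and its change in TSR differed by -1.93 ± 0.46 (adjusted p = 0.0219, and 0.0652 without TSR ZT1 replicate 3). For Per2 the control difference of 0.54 did not pass, nor did the difference between treatments of -0.54 ± 0.29 (adjusted p = 0.297).

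The promoters of Per3 and Per1 are printed since Per3 rose in TSR liver and Per1, its paralogue, did not pass. Capitals mark matches on either strand to the E-box CACGTG, the short cAMP element TGACG, the D-box TTATGTAA or TTATGCAA (bound by DBP and TEF) and AGGTCA, the core site of REV-ERB and ROR proteins. Both come from RefSeq on GRCm38.p6, Per3 from chr4:151044616-151044915 on the minus strand and Per1 from chr11:69098699-69098998 on the plus strand, and each is read 5′ to 3′ of the gene.

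Per3: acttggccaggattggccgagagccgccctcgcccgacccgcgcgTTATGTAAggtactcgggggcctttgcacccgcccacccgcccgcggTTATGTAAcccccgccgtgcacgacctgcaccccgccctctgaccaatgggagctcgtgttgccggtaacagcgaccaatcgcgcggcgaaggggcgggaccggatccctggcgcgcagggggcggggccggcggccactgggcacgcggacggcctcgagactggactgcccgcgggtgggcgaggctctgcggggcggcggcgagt
Per1: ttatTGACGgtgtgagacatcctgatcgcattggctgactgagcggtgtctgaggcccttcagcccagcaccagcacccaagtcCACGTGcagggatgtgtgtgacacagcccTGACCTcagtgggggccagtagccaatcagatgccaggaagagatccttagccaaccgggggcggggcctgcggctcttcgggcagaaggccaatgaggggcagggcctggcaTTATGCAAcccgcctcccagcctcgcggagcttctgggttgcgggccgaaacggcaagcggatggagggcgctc

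In this window Per3 held 2 D-boxes, which 1.66% of all promoters hold at least once. The printed Per1 promoter held an E-box (7.15% of all promoters), a D-box, a TGACG (20.8%) and an AGGTCA (16.3%) on its minus strand. A second promoter of Per1, not printed, held a TGACG and none of the other motifs. Of the 14 clock genes 11 had a promoter in the table, and some had several. Counting a match in any promoter of a gene, 2 genes held an E-box, 2 a D-box, 4 the TGACG element and 4 AGGTCA.

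Among the activators, Npas2 read 188, 155 and 76.9 at ZT1 and 29, 66.4 and 35.8 at ZT7. Every ZT7 array was lower, and since the ZT7 signals carried no detection call the fall was at least 3.19-fold (log2 difference -1.67 ± 0.34, adjusted p = 0.00764). Control liver fell further (-3.83 ± 0.34), from 549, 517 and 441 at ZT1 to 32.1, 30.7 and 44.2 at ZT7, and the changes differed by 2.15 ± 0.48 (adjusted p = 0.0151). At ZT1 the 3 control arrays were all above the 3 TSR arrays.

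Arntl read 1114, 1075 and 501 at ZT1 and 463, 492 and 252 at ZT7. The ZT7 arrays were all lower, but the difference of -1.13 ± 0.39 did not pass (adjusted p = 0.109, and 0.0721 without TSR ZT1 replicate 3). In control liver Arntl fell from 1459.5, 1314 and 1396 to 193, 144 and 134 (-3.16 ± 0.39, adjusted p = 0.000147), and the changes differed by 2.03 ± 0.55 (adjusted p = 0.0422, and 0.135 without TSR ZT1 replicate 3). Its partner Clock fell 1.54-fold (1417, 1313 and 1168 at ZT1 and 763, 909 and 865 at ZT7, adjusted p = 0.0162), and on the log2 scale its change was -0.62 in TSR and -0.58 in control (difference -0.04 ± 0.20, adjusted p = 0.932).

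The repressor gene Cry1 fell 1.97-fold, with 259, 284 and 191 at ZT1 and 175, 105 and 99.6 at ZT7 (adjusted p = 0.00674), and no array of ZT7 reached the level of ZT1. The control change was -1.58, and the difference of 0.60 ± 0.27 did not pass (adjusted p = 0.22). The nuclear receptor gene Rora (-0.0045) and the casein kinase genes Csnk1d (0.11) and Csnk1e (0.29), whose products phosphorylate PER proteins, did not pass, with adjusted p between 0.054 and 0.99, beside control changes of -0.13, -0.04 and -0.07.

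Of 14 clock output genes, Dbp and Tef rose and Noct and Lonrf3 fell, beside 1.34% higher and 2.77% lower among all genes. In control liver 8 of them rose and 3 fell, beside 180 and 166 of all 21352 genes. Tef, a relative of Dbp that binds the same D-box, read 220.5, 236 and 341 at ZT1 and 562, 490.3 and 533 at ZT7 (2.02-fold, adjusted p = 0.00306), beside a control change of 1.87. All ZT7 arrays were higher, and the difference from control did not pass (adjusted p = 0.0618).

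Noct, which encodes the clock-controlled phosphatase nocturnin, read 390.3, 388 and 645 at ZT1 and 185, 137 and 193 at ZT7. It fell 2.71-fold in TSR (log2 difference -1.44 ± 0.21, adjusted p = 0.000983) and rose in control (0.91 ± 0.21, from 144, 134 and 151 to 364, 271 and 196, adjusted p = 0.0343). The TSR arrays at ZT1 were the brightest of the 12, and the changes differed by -2.35 ± 0.30 (adjusted p = 0.000376).

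The deubiquitinase gene Usp2, named for its difference from control, read 242, 294 and 446 at ZT1 and 442, 198 and 338 at ZT7. In TSR the groups overlapped and the log2 difference was -0.03 ± 0.27, whereas it rose in control from 112, 135 and 126 to 496, 676 and 349.6 (1.98 ± 0.27), a difference between changes of -2.01 ± 0.38 (adjusted p = 0.0066).

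**Figure D3:**
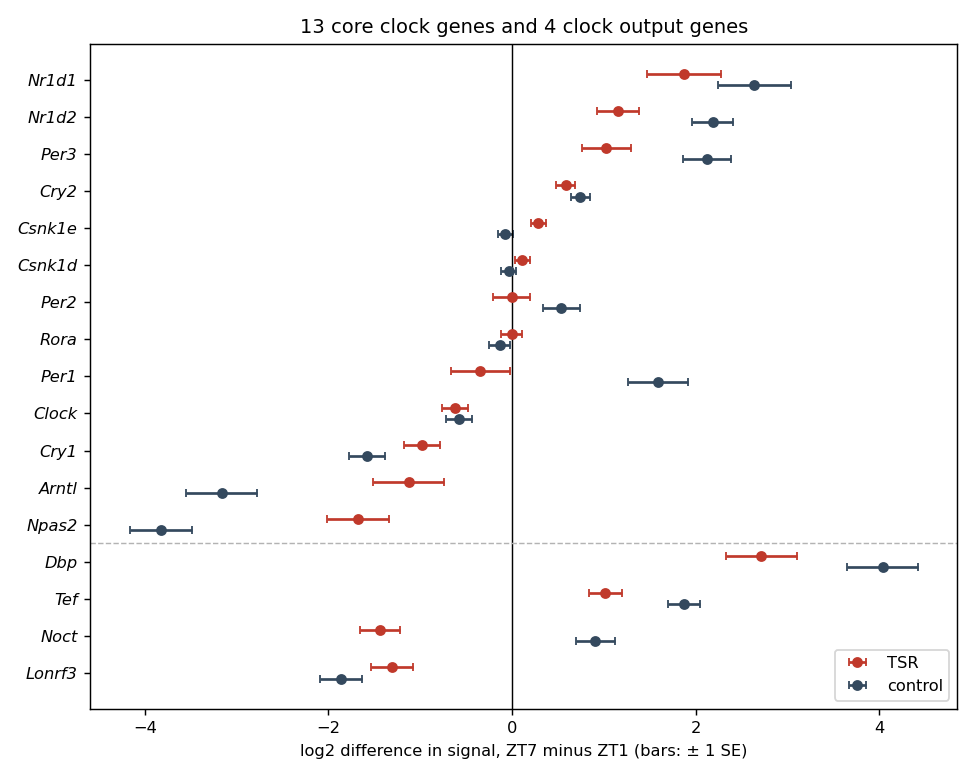
The log2 difference ZT7 minus ZT1 (x axis, bars ± 1 SE of the model) is shown for 13 core clock genes and, below the dashed line, the 4 clock output genes that changed in TSR liver, with TSR in red and control in dark blue (n = 3 arrays per group and time). Npas2, Arntl and Per1 are the core clock genes whose change passed the test of a difference between TSR and control, at 2.15, 2.03 and -1.93, and without TSR ZT1 replicate 3 Npas2 alone of these 3 passed.

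The largest falls in TSR liver included Cdkn1a, Ppp1r3b and Ppp1r3c. Cdkn1a, which encodes the cell cycle inhibitor p21, read 311, 394 and 215 at ZT1 and 43.2, 92.5 and 67.6 at ZT7. The groups were far apart, and the fall was at least 4.6-fold, as the ZT7 signals carried no detection call (log2 difference -2.20 ± 0.33, adjusted p = 0.000983). Control liver fell too (-2.13, difference between changes -0.07 ± 0.46, adjusted p = 0.951).

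Ppp1r3b and Ppp1r3c encode subunits that bring protein phosphatase 1 to glycogen. Ppp1r3b read 2219, 1877 and 1949 at ZT1 and 966, 844 and 727 at ZT7, and Ppp1r3c read 1422, 1201 and 858 at ZT1 and 339, 497 and 515 at ZT7. Both were lower in every ZT7 array, 2.39-fold (adjusted p = 0.000147) and 2.57-fold (adjusted p = 0.00337). They were the 2 genes of 14 on the glycogen list that passed, beside 2.77% lower among all genes. None on the list rose, and the list median was -0.05. In control the log2 changes were -0.62 and -1.01, and neither differed from TSR at the threshold (adjusted p = 0.0749 and 0.619).

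Tsku, which encodes the secreted liver protein tsukushi, read 2019, 2133 and 2008 at ZT1 and 960.4, 479 and 887 at ZT7. The 3 ZT1 arrays were nearly level and all ZT7 arrays were lower (2.77-fold, log2 difference -1.47 ± 0.19, adjusted p = 0.000512), and against control, which read 860.4, 812 and 942 at ZT1 and 1279, 1275 and 1695 at ZT7, the change differed by -2.16 ± 0.27 (adjusted p = 0.000368).

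Nfxl1, a zinc finger gene, read 419.8, 393 and 423 at ZT1 and 157, 151 and 186 at ZT7. No array overlapped, the fall was 2.51-fold (adjusted p = 0.000132), and it was larger than in control by a log2 difference of -1.19 ± 0.20 (adjusted p = 0.00356). That was the brightest of its 3 probe sets, and the others fell too (log2 differences of -1.16 and -2.44, adjusted p = 0.00133 and 0.000382). Tcim, a regulator of transcription and immune response, fell 2.8-fold from 591, 564 and 1051 to 248, 268 and 239 (adjusted p = 0.000606), and the difference from control of -0.87 ± 0.28 did not pass (adjusted p = 0.0858).

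Dnmt3b, a de novo DNA methyltransferase gene, carried no detection call in either group. Its signal was lower in every ZT7 array (311, 274 and 281 at ZT1 and 110.3, 109 and 93.8 at ZT7, log2 difference -1.47 ± 0.19, adjusted p = 0.000512), and the control change was -1.41 (difference -0.06 ± 0.27, adjusted p = 0.932). Lonrf3, a RING finger gene, fell 2.47-fold (319, 397 and 305 at ZT1 and 237, 123 and 87.6 at ZT7, adjusted p = 0.00298, control log2 change -1.86), and the zinc finger gene Zfp9 fell at least 2.76-fold (146, 105 and 142 at ZT1 and 45, 41.6 and 55.5 at ZT7, adjusted p = 0.000706), with a difference from control of -1.09 ± 0.29 (adjusted p = 0.0414, and 0.115 without TSR ZT1 replicate 3). Slfn1, a member of the Schlafen family, showed the largest fall of the named genes when each is read by its brightest probe set (-2.27 on the log2 scale), from 232, 244 and 805 to 50.5, 80.5 and 100.4 (4.82-fold, adjusted p = 0.0122). Its ZT1 arrays spread widely, replicate 3 was the brightest, and the call was lost without it (adjusted p = 0.0984), while the difference from control of -3.25 ± 0.70 passed (adjusted p = 0.0132, and 0.0407 without that array). A further 3 predicted genes fell by as much and are not named.

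Among 21 immediate early genes, 3 rose (Egr1, Junb and Btg2) and none fell, beside 1.34% higher among all genes. The list median was 0.28, and 20 of the 21 log2 differences were above 0, as were 57.4% of those of all genes. In control liver 2 fell and none rose, beside 166 and 180 of all 21352 genes. Egr1 is given above. Junb, an AP-1 subunit, read 118, 78.7 and 56 at ZT1 and 131, 182 and 229 at ZT7, with no detection call at ZT1 (at least 2.19-fold, adjusted p = 0.0181). All its ZT7 arrays were higher, but the call was lost without TSR ZT1 replicate 3 (adjusted p = 0.141), as was its difference from control of 1.51 ± 0.37 (adjusted p = 0.0273, and 0.091).

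Btg2, an antiproliferative immediate early gene, read 111, 125 and 128 at ZT1 and 214, 283 and 211 at ZT7. The groups did not overlap, the rise was 1.93-fold (adjusted p = 0.0084, and 0.0296 without TSR ZT1 replicate 3), and since Btg2 fell in control (-1.04 ± 0.19, from 231, 366 and 189.6 to 108, 121 and 140.2) the changes differed by 1.99 ± 0.27 (adjusted p = 0.000604). Its promoter is printed because immediate early genes are known for cAMP response elements near their start sites. The sequence is chr1:134079106-134079405, minus strand, GRCm38.p6, RefSeq, with TGACGTCA and AGGTCA (on the other strand) in capitals.

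Btg2: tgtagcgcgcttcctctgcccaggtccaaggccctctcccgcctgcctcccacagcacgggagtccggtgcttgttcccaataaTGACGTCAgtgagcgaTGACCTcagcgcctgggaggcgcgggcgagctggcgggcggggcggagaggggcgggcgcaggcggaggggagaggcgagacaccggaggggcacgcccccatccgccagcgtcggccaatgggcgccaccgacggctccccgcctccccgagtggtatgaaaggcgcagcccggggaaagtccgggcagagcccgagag

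TGACGTCA, which contains TGACG on both strands, occurs in 1.79% of all promoters of this length. Of the 141 named genes with a promoter in the table, 3 held it. No promoter of Egr1 is shown.

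On the list of 17 growth arrest and cell cycle genes, 3 rose (Gadd45a, Btg1 and Btg2) and 2 fell (Cdkn1a and Mdm2), with a median of 0.23. Among all genes 1.34% were higher and 2.77% lower. Gadd45a, a growth arrest gene induced by damage and a FOXO target, read 86.1, 94.2 and 113 at ZT1 and 167, 177 and 170.3 at ZT7 (1.77-fold, adjusted p = 0.0121). All TSR ZT7 arrays were higher than all TSR ZT1 arrays, and the log2 change was 0.82 in TSR and 0.80 in control. Mdm2, which encodes the ubiquitin ligase of p53, read 489, 519 and 521 at ZT1 and 294, 342 and 366 at ZT7, with no detection call at ZT7. It fell at least 1.53-fold (adjusted p = 0.00695), and the change differed from control by -0.97 ± 0.17 (adjusted p = 0.00456). Btg1, chosen after its values were seen, rose (log2 difference 0.74 ± 0.18, adjusted p = 0.0253, and 0.184 without TSR ZT1 replicate 3), beside a control change of -0.58 (difference 1.32 ± 0.26, adjusted p = 0.00734).

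Of 16 genes of insulin signalling and FOXO targets, 4 rose (Igfbp1, Gadd45a, Trib1 and Akt2) and 1 fell (Irs1), beside 1.34% higher and 2.77% lower among all genes. The list median was 0.22. Without TSR ZT1 replicate 3 there were 2 rises and no fall. Trib1, a pseudokinase gene, read 853, 583 and 611 at ZT1 and 828, 1337 and 1209 at ZT7 and was the only one of these whose groups overlapped (adjusted p = 0.0284, lost without that array at 0.149, control log2 change 0.09). Akt2, the main AKT kinase of liver in insulin signalling, rose (log2 difference 0.33 ± 0.08, adjusted p = 0.0306, and 0.2 without that array), and Irs1, an insulin receptor substrate chosen after its values were seen, fell (log2 difference -0.47 ± 0.12, adjusted p = 0.0358, and 0.0649). Their control changes were -0.02 and -0.23. Igfbp1 was the only gene of 14 on the insulin-like growth factor list that passed, and Igf1 itself read 5204, 5358 and 5289 at ZT1 and 4832, 4772 and 4878 at ZT7 (log2 difference -0.13 ± 0.07, adjusted p = 0.373, control 0.01).

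Of 16 gluconeogenesis genes the glycerol kinase gene Gk fell (679, 739 and 765 at ZT1 and 516, 549 and 617 at ZT7, 1.3-fold, adjusted p = 0.0428, and 0.196 without TSR ZT1 replicate 3) and none rose, and of 17 genes of glycolysis and glucose uptake none passed. Among all genes 1.34% were higher and 2.77% lower. The glucose 6-phosphatase gene G6pc did not pass (log2 difference -0.43 ± 0.20, adjusted p = 0.248, control -0.69). Against control, 2 differences passed on the first list (both negative) and 3 on the second (1 positive and 2 negative), beside 1.5% positive and 2.22% negative among all genes. They were those of Gk (-0.70 ± 0.15, adjusted p = 0.0114, and 0.0367 without TSR ZT1 replicate 3), the glycerol channel gene Aqp9 (-0.51 ± 0.13, adjusted p = 0.0379, and 0.112), the glucose transporter gene Slc2a2 (-0.79 ± 0.15, adjusted p = 0.0066, and 0.0169), Pfkfb3, a regulator of glycolysis (-1.43 ± 0.34, adjusted p = 0.0226, and 0.0694), and Pdk4, a kinase that inhibits pyruvate dehydrogenase (1.45 ± 0.35, adjusted p = 0.0251, and 0.0833). In control the log2 changes were 0.32, 0.38, 0.66, 0.74 and -1.71 in this order. Aqp9, Slc2a2 and Pdk4 were named after their values were seen.

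Among 18 glucocorticoid-responsive genes, 3 fell (Tsc22d3, Sgk1 and Cdkn1a) and none rose, beside 2.77% lower and 1.34% higher among all genes. The list median was -0.09. Tsc22d3, which encodes the glucocorticoid-induced leucine zipper protein GILZ, read 859, 664 and 1020.3 at ZT1 and 434, 382 and 413 at ZT7. It carried no detection call at ZT7 and fell at least 2.04-fold (log2 difference -1.03 ± 0.14, adjusted p = 0.000628). The kinase gene Sgk1 read 272, 292 and 276 at ZT1 and 143, 175 and 155 at ZT7 (at least 1.78-fold, adjusted p = 0.0127, and 0.052 without TSR ZT1 replicate 3). In both genes every ZT7 array was lower, and neither differed at the threshold from its control log2 change (-0.59 and -0.42, with adjusted p of 0.216 and 0.385 for the difference).

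Of 16 genes of bile acid synthesis and transport, Cyp7a1 and Nr1h4 fell and none rose, beside 2.77% lower and 1.34% higher among all genes. The list median was -0.12. Cyp7a1, the rate-limiting enzyme of bile acid synthesis, read 3419, 3964 and 4190.1 at ZT1 and 2596, 2028 and 2082 at ZT7. All ZT7 arrays were lower (1.73-fold, adjusted p = 0.0172), whereas control liver rose from 2394, 1635 and 2038 to 4159, 3700.1 and 3571 (0.93 ± 0.18, adjusted p = 0.0111), and the changes differed by -1.72 ± 0.26 (adjusted p = 0.00122). Nr1h4, the bile acid receptor FXR, read 959.9, 1103 and 1149 at ZT1 and 795, 732 and 887 at ZT7 (1.33-fold lower, adjusted p = 0.0199), with a difference from control of -1.06 ± 0.14 (adjusted p = 0.000376).

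Nr0b2, the repressor SHP that FXR induces and that acts on Cyp7a1, read 638, 632 and 601 at ZT1 and 883, 1149.6 and 1139 at ZT7. The ZT7 arrays were all higher but the rise did not pass (0.75 ± 0.22, adjusted p = 0.0635), while its difference from control did (1.55 ± 0.32, adjusted p = 0.00984). On the whole list 1 difference from control was positive and 6 were negative, against 1.5% and 2.22% of all genes. The falls of Cyp7a1 and Nr1h4 lost the call without TSR ZT1 replicate 3 (adjusted p = 0.0962 and 0.121).

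Stard4, a carrier of cholesterol within cells, read 428, 476 and 534 at ZT1 and 814, 693 and 703 at ZT7 (1.54-fold, adjusted p = 0.00306). In control its log2 change was 0.64 (difference -0.02 ± 0.16, adjusted p = 0.97). Of 21 cholesterol genes 2 rose, Stard4 among them, and none fell, beside 1.34% higher and 2.77% lower among all genes.

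Of 28 genes of fatty acid oxidation and ketogenesis, 2 rose, beside 1.34% of all genes. Ppara, the receptor that drives this program, read 892, 914 and 1007 at ZT1 and 1245, 1221 and 1536 at ZT7 (1.42-fold, adjusted p = 0.00418, control log2 change 0.82), and the lipid droplet gene Plin2 rose (log2 difference 0.49 ± 0.12, adjusted p = 0.0221, and 0.163 without TSR ZT1 replicate 3, control 0.19). Of 23 genes of fatty acid and triglyceride synthesis Lpin2, a phosphatidate phosphatase, rose (log2 difference 0.64 ± 0.16, adjusted p = 0.0244, control 0.37), and of 31 genes of amino acid breakdown and the urea cycle Bckdha rose (log2 difference 0.38 ± 0.09, adjusted p = 0.0203, and 0.136 without that array, control 0.20). No gene of these 3 lists fell, beside 2.77% of all genes.

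Of 24 ribosome biogenesis genes 8 fell, none rose and 16 did not pass, beside 2.77% lower among all genes. The list median was -0.39, and 15 had all ZT7 arrays below all ZT1 arrays, beside 11.9% of all probe sets. The mean log2 signal of the list, relative to the 6 TSR arrays, was 0.25, 0.099 and 0.18 at ZT1 and -0.11, -0.22 and -0.19 at ZT7. The groups were thus separate, and in control liver none of the 24 changed (median -0.05). Without TSR ZT1 replicate 3, 3 of the 8 passed, and the median was -0.32.

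Nop58 and Nop56 encode core proteins of the box C/D particles that methylate ribosomal RNA. Nop58 read 514, 469 and 461 at ZT1 and 251, 234 and 234 at ZT7 (2.01-fold, adjusted p = 0.000563, difference from control -0.93 ± 0.19, adjusted p = 0.00983). Nop56 read 703, 549.9 and 838 at ZT1 and 393, 347 and 336 at ZT7 (1.92-fold, adjusted p = 0.00306, difference from control -0.97 ± 0.23, adjusted p = 0.0253). In both genes all ZT7 arrays were below all ZT1 arrays, and both falls passed without TSR ZT1 replicate 3, whereas the difference of Nop56 from control did not (adjusted p = 0.0861). Wdr43, a subunit of the small-subunit processome, read 852, 665 and 707 at ZT1 and 505, 454 and 486 at ZT7 (adjusted p = 0.0209, and 0.0625 without that array), and Polr1a, the largest subunit of RNA polymerase I, read 449.8, 409 and 407 at ZT1 and 302, 301 and 290.3 at ZT7 (adjusted p = 0.0191, and 0.0572). Their control changes were 0.29 and 0.01.

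Of 25 splicing and RNA processing genes, 9 fell, none rose and 16 did not pass, beside 2.77% lower among all genes. The median was -0.31, and 6 fell without TSR ZT1 replicate 3. The list mean relative to the 6 arrays was 0.11, 0.18 and 0.29 at ZT1 and -0.29, -0.18 and -0.11 at ZT7, and 24 of the 25 log2 differences were below 0, as were 42.6% of those of all genes. In control liver 1 gene rose, none fell and the median was 0.13.

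Srsf7, an SR splicing factor, read 465, 565 and 487 at ZT1 and 199, 253 and 266 at ZT7 (2.12-fold, adjusted p = 0.000675, difference from control -1.34 ± 0.21, adjusted p = 0.00204). The kinase gene Clk4, whose product phosphorylates SR proteins, read 1187, 1144 and 1272 at ZT1 and 673, 757 and 786 at ZT7. Prpf4b, another kinase gene of the splicing machinery, read 475, 468 and 554 at ZT1 and 251, 279.8 and 293 at ZT7. Both fell (1.63-fold and 1.82-fold, adjusted p = 0.00127 and 0.000919) and differed from control by -1.01 ± 0.16 and -1.01 ± 0.18. The splicing regulator gene Tra2b fell 1.69-fold (1360.2, 1404 and 1280.1 at ZT1 and 766, 811 and 818 at ZT7, adjusted p = 0.00113), with a difference from control that did not pass (-0.32 ± 0.16, adjusted p = 0.278). In these 4 genes every ZT7 array was lower, and the calls held without TSR ZT1 replicate 3.

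Calls among genes of the ribosome itself went the other way and did not hold without TSR ZT1 replicate 3. The 68 cytosolic ribosomal protein genes had a median of 0.31, with 2 rises (Rpl37a and Rpsa) and no fall, and the 50 oxidative phosphorylation genes had a median of 0.20, with 4 rises (Cox4i1, Ndufa7, Atp5o and Ndufb7) and no fall. Among all genes 1.34% were higher and 2.77% lower. The mean of the ribosomal protein list was 0.0048, -0.021 and -0.49 at ZT1 and 0.14, 0.13 and 0.23 at ZT7, and that of the oxidative phosphorylation list was -0.023, -0.017 and -0.33 at ZT1 and 0.10, 0.12 and 0.15 at ZT7. Replicate 3 was thus the low array at ZT1 in both lists. Without it no gene of either list passed, and the medians were 0.16 and 0.11. With all arrays, 64 of the 68 and 44 of the 50 log2 differences were above 0, as were 57.4% of those of all genes. In 39 and 26 of these genes all ZT7 arrays lay above all ZT1 arrays, beside 13.8% of all probe sets. Both lists hold genes with near-identical copies elsewhere in the genome, whose signals a probe set may share. Of 31 proteasome genes Psmb1 rose, and not without TSR ZT1 replicate 3. Its second, dimmer probe set did not pass (log2 difference 0.21 ± 0.21, adjusted p = 0.637).

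**Figure D4:**
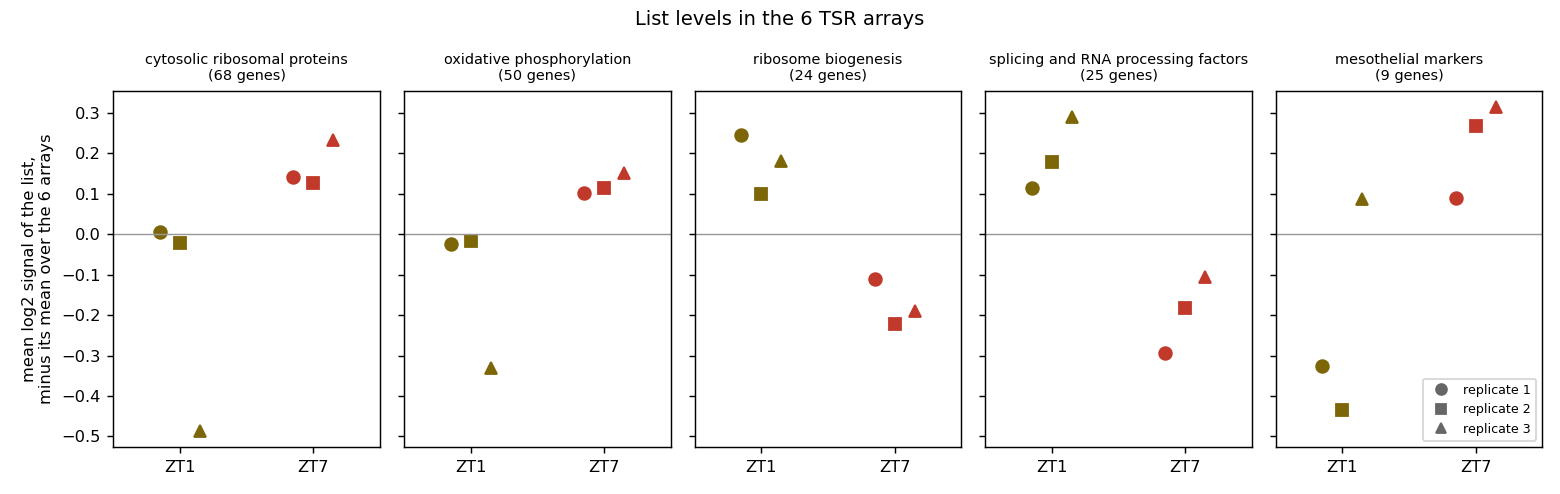
The mean log2 signal of each gene list (y axis, minus its mean over the 6 TSR arrays) is shown for each TSR array at ZT1 and ZT7, with a symbol for each replicate number. The means of ribosome biogenesis and splicing genes were lower in all 3 ZT7 arrays, while in ribosomal protein and oxidative phosphorylation genes TSR ZT1 replicate 3 lies far below the other ZT1 arrays, at -0.49 and -0.33.

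Of 17 cytosolic heat shock chaperone genes, Hsp90ab1 and Hspb1 rose and Bag3 and Dnajb4 fell, which is 11.8% in each direction beside 1.34% higher and 2.77% lower among all genes. The median was -0.01, and none of the 4 passed without TSR ZT1 replicate 3 (adjusted p between 0.052 and 0.196). In control 3 fell and none rose (median -0.46), and 5 differences between changes passed, all positive (Hsph1, Hsp90ab1, Hspb1, Stip1 and Ahsa1), beside 1.5% of all genes. Without that array Hsp90ab1 and Ahsa1 lost this call. Hsph1, Stip1 and Ahsa1 were named after their values were seen. Hsph1 read 632, 531 and 845 at ZT1 and 751, 600.5 and 460.2 at ZT7 in TSR and 854, 708 and 721 at ZT1 and 279, 243 and 321 at ZT7 in control, so its TSR groups overlapped while all control ZT7 arrays were lower (difference 1.29 ± 0.33, adjusted p = 0.0335).

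Of 22 genes of endoplasmic reticulum stress, Chac1, a glutathione-degrading enzyme, rose (log2 difference 0.45 ± 0.11, adjusted p = 0.0215, control -0.12) and the chaperone gene Dnajb9 fell (-0.66 ± 0.17, adjusted p = 0.0314, control -0.56). Among all genes 1.34% were higher and 2.77% lower. The RNA-binding protein gene Rbm3, which cold induces, read 1656, 1823 and 1468 at ZT1 and 1018, 981 and 969 at ZT7. All ZT7 arrays were lower (1.66-fold, adjusted p = 0.000983), while control liver rose from 842, 654 and 674 to 1448, 1399.8 and 1304 (0.94 ± 0.11, adjusted p = 6.38e-05). The changes differed by -1.68 ± 0.15 (adjusted p = 7.86e-06). Of the 4 probe sets of Rbm3 the dimmest did not pass (log2 difference 0.08 ± 0.14 in TSR, adjusted p = 0.815). The other cold-inducible gene, Cirbp, did not pass (-0.16 ± 0.16, adjusted p = 0.641, control 0.54). Of 7 metallothionein and zinc transporter genes, Slc30a10 fell (587, 601 and 540.1 at ZT1 and 338, 391 and 324 at ZT7, adjusted p = 0.00882, control log2 change -0.68).

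None of the 20 antioxidant genes, 18 cytochrome P450 and xenobiotic response genes and 19 acute phase genes passed, with medians of 0.09, -0.0044 and -0.02. Of 22 interferon-stimulated genes, Usp18, Oasl1 and Irf1 rose (log2 differences 0.73, 0.56 and 0.51, adjusted p between 0.0158 and 0.0495) and none fell, beside 1.34% higher among all genes. None of the 3 passed without TSR ZT1 replicate 3, and their control changes were 0.60, -0.05 and 0.04. A second, dimmer probe set of Irf1 did not pass (log2 difference 0.14 ± 0.19, adjusted p = 0.749).

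**Figure D5:**
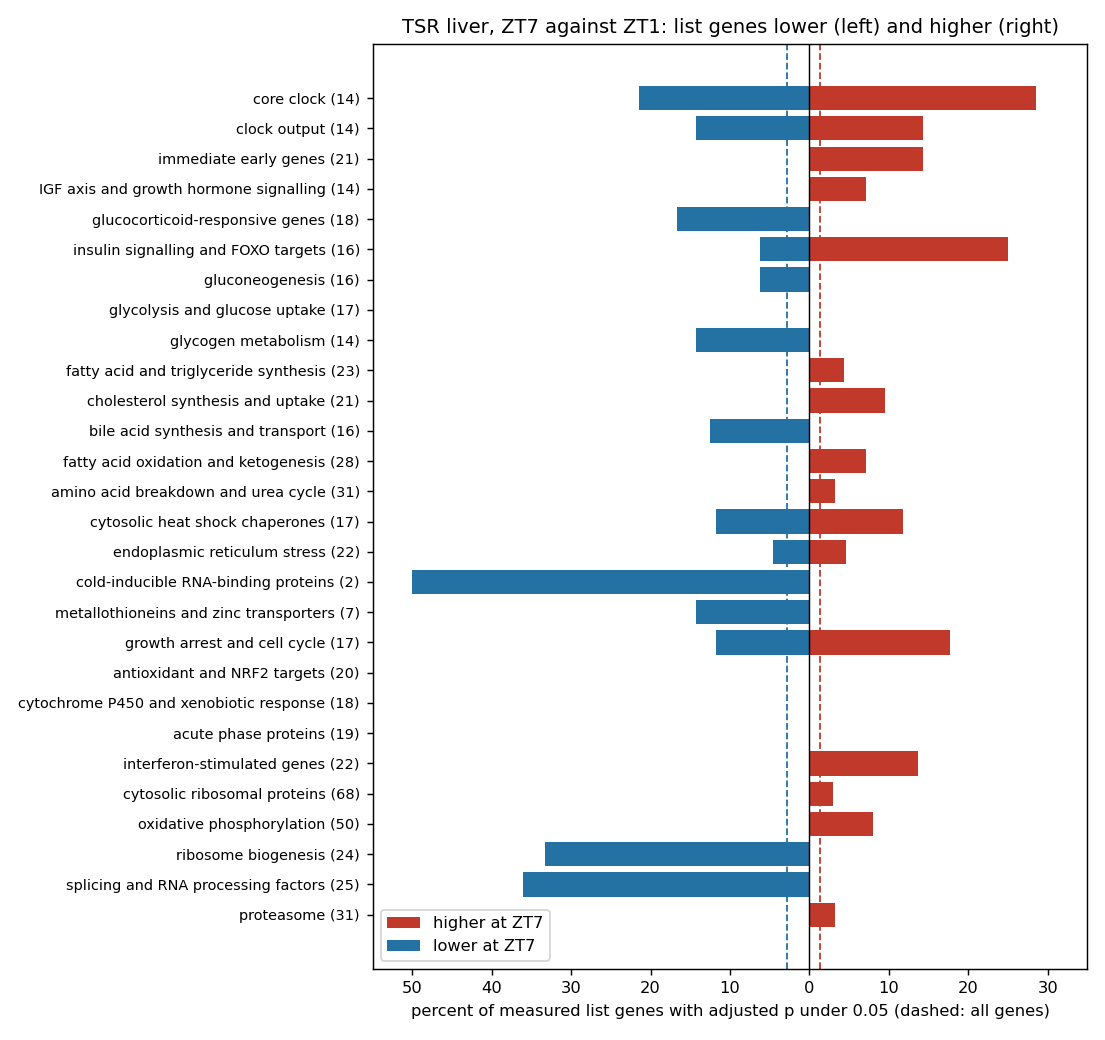
For each gene list (number of measured genes in brackets) the bars give the percentage of genes that were higher (right, red) and lower (left, blue) at ZT7 in TSR liver at an adjusted p under 0.05, and dashed lines mark all genes (1.34% higher and 2.77% lower). Splicing genes (36% lower), ribosome biogenesis genes (33.3% lower) and core clock genes (28.6% higher and 21.4% lower) have long bars, and the longest bar, cold-inducible genes, is 1 gene of 2.

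Markers of cells other than hepatocytes were read as well. Of 9 mesothelial markers, 3 rose (Upk3b, Lrrn4 and Upk1b) and none fell, beside 1.34% higher among all genes. All 9 log2 differences were above 0 (median 0.41), as were 57.4% of those of all genes. Lrrn4 carried no detection call in either TSR group, and Upk3b carried none at TSR ZT1 and 1 at TSR ZT7. Mesothelium is the cell layer that covers the surface of the organ. The summed signal of the list was 519 to 735 at TSR ZT1 and 745 to 908 at TSR ZT7, beside 657 to 672 at control ZT1 and 471 to 546 at control ZT7. Upk3b, a uroplakin gene, read 75.8, 78.5 and 74.8 at ZT1 and 104, 175 and 160.1 at ZT7 (log2 difference 0.90 ± 0.16, adjusted p = 0.00312, difference from control 1.76 ± 0.23, adjusted p = 0.000376), and Upk1b read 45.7, 48.6 and 62.9 at ZT1 and 73.4, 99.5 and 95.2 at ZT7 (adjusted p = 0.0338, difference from control 1.74 ± 0.28, adjusted p = 0.0022). Their part in the changes of other genes was not tested.

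The hormone-sensitive lipase gene Lipe, 1 of 9 adipocyte markers, rose (log2 difference 0.76 ± 0.14, adjusted p = 0.00464, control 0.16), beside 1.34% higher and 2.77% lower among all genes. All 9 log2 differences of this list were above 0 too (median 0.16). Its summed signal was 867 to 930 at TSR ZT1 and 1079 to 1111 at TSR ZT7, beside 898 to 1021 at control ZT1 and 956 to 1056 at control ZT7. The scavenger receptor gene Stab2, 1 of 11 sinusoidal endothelial markers, fell (log2 difference -0.29 ± 0.08, adjusted p = 0.0346, control -0.06), while the other 10 log2 differences lay above 0 and the list median was 0.21. The osteopontin gene Spp1, 1 of 9 cholangiocyte markers, fell too (log2 difference -0.48 ± 0.11, adjusted p = 0.0191, control -0.03). Without TSR ZT1 replicate 3 neither of the last 2 passed (0.149 and 0.0871). No marker of Kupffer cells (12 measured), stellate cells and fibroblasts (13), pancreatic acini (12), erythroid cells (6), neutrophils (10), lymphocytes (11) or neural cells (8) passed between the times in TSR. The difference from control passed for 1 marker each of Kupffer, stellate and sinusoidal endothelial cells (positive) and of erythroid and neural cells (negative). Of all genes 1.5% were positive and 2.22% negative. Without TSR ZT1 replicate 3 the Kupffer and stellate markers lost this call (adjusted p = 0.108 and 0.0642).

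The genes with the largest differences between the TSR and control changes that are not given above were few. Pabpn1l, a gene related to nuclear poly(A)-binding protein, carried no detection call in either TSR group. Its signal was 126, 87.4 and 34.2 at ZT1 and 251, 159 and 273 at ZT7, and its difference from control was 3.07 ± 0.74 (adjusted p = 0.0246, and 0.0826 without TSR ZT1 replicate 3). Gdap10 read 88.1, 184 and 193 at ZT1 and 103, 86.6 and 126 at ZT7 in TSR and 78.7, 66.2 and 60.9 at ZT1 and 165, 146 and 283 at ZT7 in control (difference -1.97 ± 0.41, adjusted p = 0.0115). The prefoldin subunit gene Pfdn4 read 139, 178 and 424 at ZT1 and 91.4, 95.7 and 108 at ZT7 in TSR and 107, 95.6 and 108 at ZT1 and 129, 131 and 339.5 at ZT7 in control (difference -1.95 ± 0.49, adjusted p = 0.0296, and 0.0821 without that array).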

How the data were processed

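Total RNA of whole liver was read on Affymetrix Mouse Gene 1.0 ST arrays. Normalization by the authors used d-Chip, and what they deposited is a linear signal intensity per probe set, never below 1. For d-Chip, the version, background step and summary step are not given in the sources used. The authors' present or absent call per array was deposited beside each signal and is read here with a detection p of 0.05 or less. The 24 columns of another tissue were not used. Normalized arrays give relative levels, and signals of different probe sets are not compared.

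Of 28815 probe sets, 24261 carried a symbol, 23125 of the symbols were matched to RefSeq, and 3315 were updated. Signals were set to at least 1 and transformed to log2. All 24 liver arrays (3 in each of 8 groups) were fitted with limma 3.58.1 in R 4.3.3 as group means, and moderated tests of ZT7 minus ZT1 in TSR, of the same in control, and of the difference between them were adjusted with Benjamini-Hochberg over all 24261 probe sets at a threshold of 0.05. The methods' test was a two-tailed test per probe set, which is among the alternatives. With 3 arrays per group an exact permutation test cannot pass this threshold. Where per-array calls were absent in every array of the lower group, the fold is marked "at least". The number is then still the estimated fold and not a confidence limit. Folds are ratios of geometric means, taken from the difference between the means of log2 values. In simulated data with the same groups and 24261 probe sets, changes of 0.5, 1 and 2 on the log2 scale were set in 67, 67 and 66 probe sets. Of these, 25.4%, 76.1% and 98.5% were recovered, with 13 false calls among 146. The simulated noise was independent between probe sets and held no outlying array, so these rates need not hold for the real arrays.

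The text names the 12 largest called rises and 12 largest called falls without overlap between groups (1 symbol, no predicted genes or receptor clusters), Egr1, Igfbp1 and Nr1d1, the core clock list, at most 4 genes of each other list, by adjusted p, and the 6 largest differences from control in each direction. A few genes that this rule takes are not reported here and stay in the counts of their lists. Lists use 1 probe set per gene, the brightest over the liver arrays. The genes and lists were chosen with earlier results of these data known. The numbers of the replicates did not pair the arrays (correlations of same-numbered deviations at TSR ZT1 and ZT7 of -0.199, 0.122 and -0.0267). The alternatives were filters on signal and on detection, quantile normalization, log2 of the signal plus 16, the second deposited table of the same values, a replicate block, array weights, fits of fewer arrays, and each array left out in turn. Software also included Python 3.11.15 with pandas 2.3.3, numpy 2.4.6 and matplotlib 3.10.9.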

Additional observations from a re-analysis of the deposited data

Results flagged for a closer look

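The change from ZT1 to ZT7 in TSR liver differed from the change in control liver in 939 probe sets, by a direct test of the difference (limma, adjusted p under 0.05). Among the genes named in the text, 48 passed that test. Leaving out single arrays removed 2 to 19 of these calls, most without control ZT1 replicate 2 (19). Without TSR ZT1 replicate 3, 17 were lost, namely Defb48, Pim1, Zfp9, Arntl, Per1, Junb, Hsp90ab1, Ahsa1, Rpl37a, Ndufb7, Atp5o, Nop56, Pabpn1l, Pfdn4, Aqp9, Pdk4 and Pfkfb3, and 17 were lost without control ZT7 replicate 3. The difference (TSR change minus control change, log2 scale) was positive, meaning more of a rise or less of a fall in TSR, for Egr1 (5.43), Igfbp1 (4.13), Depp1 (3.23), Pabpn1l (3.07), Defb48 (2.31), Npas2 (2.15), Hspb1 (2.12), Arntl (2.03), Btg2 (1.99), Upk3b (1.76), Upk1b (1.74), Nr0b2 (1.55), Junb (1.51), Pdk4 (1.45), Btg1 (1.32), Hsph1 (1.29), Rpl37a (1.23), Lrrn4 (1.11), Ndufb7 (1.08), Stip1 (0.99), Pim1 (0.90), Ahsa1 (0.79), Atp5o (0.67), Chac1 (0.57) and Hsp90ab1 (0.49). It was negative for Slfn1 (-3.25), Noct (-2.35), Tsku (-2.16), Usp2 (-2.01), Gdap10 (-1.97), Pfdn4 (-1.95), Per1 (-1.93), Cyp7a1 (-1.72), Rbm3 (-1.68), Pfkfb3 (-1.43), Srsf7 (-1.34), Nfxl1 (-1.19), Zfp9 (-1.09), Nr1h4 (-1.06), Prpf4b (-1.01), Clk4 (-1.01), Nop56 (-0.97), Mdm2 (-0.97), Nop58 (-0.93), Wdr43 (-0.91), Slc2a2 (-0.79), Gk (-0.70) and Aqp9 (-0.51). Of these, Btg1, Hsph1, Stip1, Ahsa1, Aqp9, Slc2a2 and Pdk4 were chosen after their values were seen. The TSR and control contrasts share no arrays, but both rest on the same estimate of the spread. The difference contains the TSR change itself, so for a gene chosen by that change the 2 tests are not independent.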

How the results depend on the processing

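The TSR count of 1003 and the count of 939 differences from control stayed within 1.5 times of these values under the filter on detection, quantile normalization, the added 16 and the other deposited table, and the TSR count did so with 1 probe set per gene. They were 1554 and 1605 among probe sets brighter than the median and 1850 and 1892 with array weights. Only the 6 TSR arrays gave 10 TSR calls (4073 at an unadjusted p under 0.05), the two-tailed test per probe set gave 7 (3712 unadjusted), and the 12 arrays of ZT1 and ZT7 gave 500 differences. Il1r1, Kat8, Psmb5, Rps2, Siva1 and Zbtb41 were among the 7. Leaving out single arrays gave 322 to 1009 TSR calls and 413 to 1436 differences, and 312 of the 322 calls without TSR ZT1 replicate 3 were among the 1003. The TSR count moved by over 1.5 times without TSR ZT1 replicate 3 (322) or TSR ZT7 replicate 1 (485), 2 (450) or 3 (480). The count of differences was 1436 without TSR ZT1 replicate 1, 417 without TSR ZT1 replicate 3, 533 and 545 without TSR ZT7 replicate 1 and 2, 413 and 612 without control ZT1 replicate 2 and 3, and 418 without control ZT7 replicate 3. Of 2 settings chosen after seeing the data, the 5 TSR arrays without TSR ZT1 replicate 3 alone gave 1 call (Dbp), and leaving out that array and control ZT7 replicate 3 gave 368 calls and 191 differences. With the replicate block there were 925 TSR calls and 983 differences, and no TSR ZT7 array correlated best with the TSR ZT1 array of its own number. Apart from the fewer arrays or probe sets in a fit, the cause was not tested.

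Of 79 named genes with a called TSR change, 34 stayed called in the same direction under every alternative that tested them and pools the spread over all groups. Egr1, Igfbp1, Dbp, Depp1, Cdkn1a, Npas2, Nop58 and Srsf7 were among them and Nr1d1 was not. The filter on detection left out Egr1 and Npas2, so they were not tested under it. Only genes that were not called reversed. Per2 was 0.082 with array weights, 0.21 in each setting without TSR ZT1 replicate 3 and between -0.24 and 0.21 with single arrays left out. Rora was 0.044 with array weights, 0.0598 in each setting without TSR ZT1 replicate 3 and between -0.0596 and 0.0598 with single arrays left out. Dim probe sets limit what can be read, since 62 of the 1003 carried no detection call in either group.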

Other observations

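Some genes had probe sets that did not move together. Of 141 genes with more than 1 probe set and at least 1 call between TSR ZT1 and ZT7, the brightest probe set was not called in 49, and the 5 with the widest gaps, chosen after their values were seen, were Snhg1, Hspa8, Gas5, Rps13 and Cdkn2aip. The first 4 are known as host genes of box C/D small nucleolar RNAs, the RNAs that work with the NOP56 and NOP58 proteins.

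Hspa8, a constitutive chaperone gene, had 4 probe sets. Its brightest read 5884, 5767 and 5371 at ZT1 and 5148, 5647 and 6224 at ZT7, and the groups overlapped (log2 difference -0.0034 ± 0.11, adjusted p = 0.993). The 2 dimmest fell, and one of them read 895, 1019 and 1112 at ZT1 and 265, 308 and 435 at ZT7 (log2 difference -1.61 ± 0.29, adjusted p = 0.00328, and 0.023 without TSR ZT1 replicate 3).

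In Gas5 the brightest of 4 probe sets differed by -0.24 ± 0.15 (adjusted p = 0.409) and the other 3 fell. The largest fall, -1.77 ± 0.23, came from a probe set that read 155, 206 and 229.5 at ZT1 and 41.5, 60.9 and 73.8 at ZT7 (adjusted p = 0.000512). Snhg1 had 5 probe sets, of which the brightest was higher at ZT7 without passing (0.90 ± 0.40, adjusted p = 0.231) and 2 others fell (-1.37 ± 0.24 and -1.39 ± 0.22).

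Rps13 had 3 probe sets, and the brightest differed by 0.49 ± 0.20 (adjusted p = 0.184) while the dimmest fell by 0.87 on the log2 scale, from 83.5, 99.9 and 107 to 47.3, 53.8 and 57.1 (adjusted p = 0.0086, and 0.0573 without TSR ZT1 replicate 3). Cdkn2aip went the other way, with a brightest probe set at -0.30 ± 0.15 (adjusted p = 0.32) and a second that rose by 1.06 ± 0.28 (adjusted p = 0.0369, and 0.227 without that array). Which part of each transcript a probe set reads was not examined.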
